A study of Mus musculus with 8 samples.

Results

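C1qa, C1qb, C1qc, Mrc1, Cd163 and Vcam1 were 6 of the 2000 genes of a single-cell expression table, chosen by name, and were followed in the 3928 myeloid cells among its 53528 cells. A cell was called myeloid when the mean value of Tyrobp and Fcer1g, which encode adaptor chains of immune receptors, was at least 1 and the mean value of the T cell genes Cd3g and Trbc2 was below 0.5. Values are natural logs. The comparison classes needed a mean of at least 1 over Cd3g and Trbc2 for T cells, over Col1a1, Col1a2, Col3a1 and Dcn for fibroblasts, and over Afp, Alb, Ttr, Apoa1 and Apoa2 for hepatoma cells, each with a myeloid mean below 0.5. They held 12241, 774 and 28355 cells, and 8230 cells fell in no class.

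The tumours were of the mouse hepatoma line Hepa1-6, and their cells were profiled by droplet-based 3′ RNA sequencing. The labels give 4 groups: unedited tumours given PBS, unedited tumours given an antibody against PD-1, Soat1-edited tumours given PBS and Soat1-edited tumours given the antibody. Entry titles call the editing a knockout and the genotype field calls it a knockdown, and Soat1 itself was not analysed here. The last number of a cell's name splits the cells into 6 sets of 7569 to 11813 cells. No label maps sets to groups, so genotypes and treatments were not compared, no p-value was computed, and each set is given as an unassigned sample. UMI counts (unique molecular identifiers, each marking a captured transcript) could be recovered for set 1 only, whose cells held a median of 11099 UMIs. Values of the other 5 sets had been altered further before deposit, and 22.9% to 33.4% of them were below 0. Cell names were running numbers, so barcodes shared between sets could not be counted.

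C1qa, C1qb and C1qc encode the A, B and C chains of C1q, the recognition unit that starts the classical complement pathway, and macrophages are its main source. Mrc1 encodes the mannose receptor CD206 and Cd163 the receptor for haemoglobin-haptoglobin, both endocytic receptors of tissue macrophages. Vcam1 encodes an adhesion molecule that binds the integrin of Itga4 and is best known from activated endothelium. Ccr2, the chemokine receptor with which blood monocytes enter tissue, marks the less differentiated end of the monocyte to macrophage path.

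The 3 C1q genes lie side by side on the minus strand of mouse chromosome 4, in RefSeq annotation of GRCm38.p6. C1qb spans chr4:136880126-136886200, C1qc spans chr4:136889801-136892936 and C1qa spans chr4:136895916-136898844. The gap from C1qb to C1qc is 3600 bases and that from C1qc to C1qa is 2979 bases, within 18719 bases in all. Mrc1 lies on chromosome 2, Vcam1 on chromosome 3 and Cd163 on chromosome 6. The 250 bases before the transcript start that RefSeq's promoter table uses, which for C1qc lies slightly inside the gene span above, are given next. Those of C1qb (chr4:136886201-136886450) and C1qc (chr4:136892915-136893164) are shown because the levels of these genes varied together from cell to cell, and those of Mrc1 (chr2:14229164-14229413, plus strand) because it followed them more loosely. No promoter entry was available for C1qa or Vcam1, so theirs could not be shown. Capitals mark AGGAAG or its complement, a core of ETS family sites, and TGCTGA, a MAF half-site, searched on both strands.
C1qb promoter: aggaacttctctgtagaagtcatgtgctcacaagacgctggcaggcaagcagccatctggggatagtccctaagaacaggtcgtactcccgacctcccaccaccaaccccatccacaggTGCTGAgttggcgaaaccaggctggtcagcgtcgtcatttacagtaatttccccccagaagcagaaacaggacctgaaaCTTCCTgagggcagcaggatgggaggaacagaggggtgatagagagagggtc
C1qc promoter: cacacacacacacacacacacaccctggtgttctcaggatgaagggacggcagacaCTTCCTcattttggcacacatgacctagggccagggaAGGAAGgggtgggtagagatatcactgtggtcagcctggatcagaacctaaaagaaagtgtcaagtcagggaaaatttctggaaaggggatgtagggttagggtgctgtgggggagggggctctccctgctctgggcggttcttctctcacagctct
Mrc1 promoter: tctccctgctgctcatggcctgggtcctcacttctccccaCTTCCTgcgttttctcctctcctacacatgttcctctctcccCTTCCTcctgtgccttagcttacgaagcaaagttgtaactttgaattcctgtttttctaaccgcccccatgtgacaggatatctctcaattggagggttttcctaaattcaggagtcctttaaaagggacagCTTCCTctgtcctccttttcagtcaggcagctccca
AGGAAG was found 1 time before C1qb, 2 times before C1qc, 3 times before Mrc1 and 0 times before Cd163, and 29.5% of 32851 RefSeq promoter windows of this length hold it. TGCTGA was found before C1qb alone of these 4 genes and is held by 16.1% of the windows. These strings were chosen after others had been tried, and a match is a description of the letters, not a bound site.

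In set 1 the levels of the C1q genes were higher in the myeloid class than in the other 3 classes. The 498 myeloid cells, which had a median of 2603 UMIs, held 4986 UMIs of C1qa, a level of 2608 CPM (UMIs per 1000000 UMIs of the class, 95% exact Poisson interval 2536 to 2681). C1qa was at 34.0 CPM in 1230 T cells, 41.9 in 77 fibroblasts and 30.6 in 6193 hepatoma cells, and at 897 in the 1281 cells of no class. C1qb was at 744 CPM in myeloid cells against 6.78, 3.22 and 4.36 in the same 3 classes. C1qc was at 1077 CPM against 9.54, 3.22 and 4.87. Intervals here and below cover counting error only. The myeloid level exceeded that of T cells 76.7-fold for C1qa (exact interval 67.9 to 87.0), 110-fold for C1qb (83.7 to 147) and 113-fold for C1qc (89.8 to 144). The size of the C1qa ratio depended on how cells were weighted: on the log2 scale it was 6.22 to T cells and 6.36 to hepatoma cells from summed UMIs, 4.61 and 3.70 after thinning, and 4.69 and 3.79 from means over cells.

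Hepatoma transcripts were present in most of these cells: the mean of the 5 hepatoma genes was at least 0.5 in 71.5% to 80.3% of the gate over the 6 sets. In the 134 gate cells of set 1 below that mean, C1qa was at 1512 CPM, C1qb at 588, C1qc at 725, Mrc1 at 299 and Vcam1 at 514.

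Mrc1 was at 327 CPM in myeloid cells, 3.39 in T cells, 1.61 in fibroblasts and 2.40 in hepatoma cells, so its myeloid level was 96.5-fold that of T cells (65.7 to 148). Cd163 was close to undetected. Its 26 UMIs in the myeloid class came from 5 cells, 20 of them from 1 cell, and gave 13.6 CPM. That cell also held 79 UMIs of C1qa, 23 of Mrc1 and 39 of Vcam1 and none of Ccr2. All 5 cells held UMIs of the 3 C1q chains and of Mrc1.

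Vcam1 was shared with fibroblasts. It stood at 804 CPM in myeloid cells and 148 in fibroblasts, a ratio of 5.43 (4.40 to 6.77), while T cells had 9.54 and hepatoma cells 9.24. Of the fibroblasts, 46.8% held a Vcam1 UMI at a median depth of 6615 UMIs, and 15.6% did after each cell was thinned to 1000 UMIs. Markers of endothelium, the textbook site of Vcam1, were near 0 in the myeloid class: the 2 of 5 listed genes in the table, namely Cdh5 and Kdr, summed to 10.5 CPM.

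All 6 genes were more than 2-fold higher in myeloid cells than in each other class. Of the 2000 genes, 26.6% were that much higher against T cells, 29.6% against fibroblasts and 26.9% against hepatoma cells. The gene median on the log2 scale, with a pseudocount of 1 CPM, was 0.22, 0 and -0.19 in the 3 comparisons. For Cd163 against fibroblasts the ratio rested on 26 UMIs and 1 UMI (8.44, interval 1.39 to 346).

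**Figure D1:**
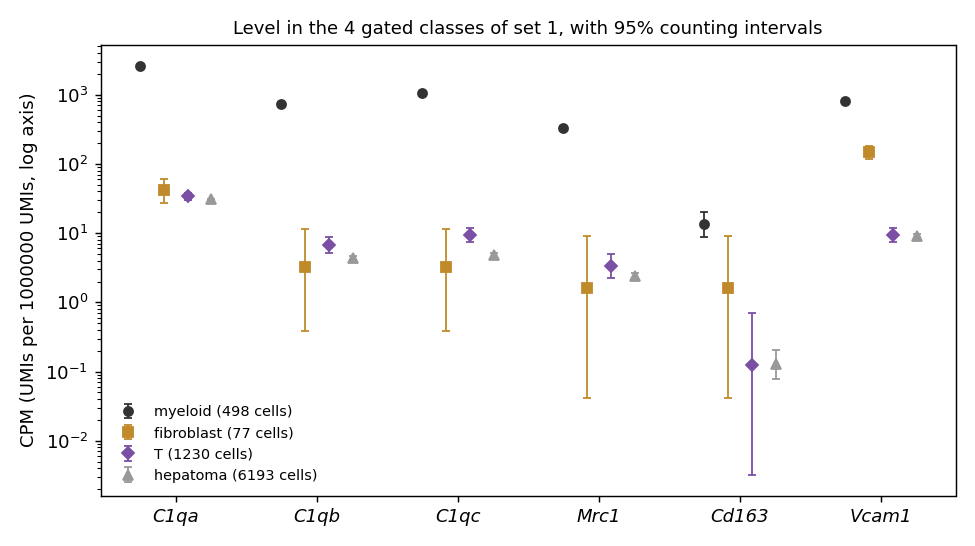
Level of the 6 genes in set 1 (CPM, log axis) in the myeloid, fibroblast, T and hepatoma classes, with 95% exact Poisson intervals. Every gene is highest in the myeloid class, and Vcam1 has the nearest second class, fibroblasts at 148 against 804.

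After thinning to 1000 UMIs per cell, C1qa was detected in 47.2% of myeloid cells, C1qb in 37.3%, C1qc in 40.8%, Mrc1 in 19.5%, Vcam1 in 26.9% and Cd163 in 0.402%. The unthinned shares were 54.0%, 50.8%, 50.4%, 31.9%, 32.5% and 1.00%. Among thinned T cells, which should lack C1q, the shares were 2.20% for C1qa, 0.488% for C1qb and 0.813% for C1qc, at a median depth of 4733 UMIs before thinning. Taking at least 2 thinned C1q UMIs as C1q-positive, 240 myeloid cells were positive and 258 negative. Mrc1 was at 517 CPM in the positive and 96.9 in the negative cells, and Vcam1 at 1427 and 51.9, while Ccr2 was at 265 and 392. Of 15 macrophage markers in the table, 10 were more than 2-fold higher in the C1q-positive cells, among them Mertk (378 against 25.4) and Cx3cr1 (183 against 45.0). The other way, 2 of the 15 were more than 2-fold lower there, Spp1 (144 against 702) and Arg1 (240 against 525). Of 8 monocyte markers 4 were lower and none higher, with Ly6c2 at 40.2 against 204. Of 6 neutrophil markers 5 were lower, with S100a9 at 24.9 against 3426, and 1 was higher. The share of all 2000 genes that far apart between these cells is not given here, so the marker counts lack a background.

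The gate also held other cell types that carry Tyrobp and Fcer1g. In set 1, 9.44% of the gate had neutrophil markers and 4.02% natural killer cell markers, with 1.61% for conventional and 1.41% for plasmacytoid dendritic cells. Any such type took 13.9% to 24.4% of the gate over the 6 sets. The 47 cells with neutrophil markers held C1qa at 1547 CPM, C1qb at 357, C1qc at 540, Mrc1 at 265 and Vcam1 at 348. The 20 cells with natural killer markers held 2 UMIs of C1qa and none of C1qb, C1qc, Mrc1 or Vcam1. Without these cells the 416 others had 2892 C1qa, 830 C1qb, 1202 C1qc, 357 Mrc1 and 900 Vcam1 CPM. Macrophage markers, 15 of 19 listed genes being in the table, summed to 8055 CPM in the gate. The 3 of 7 listed Kupffer cell genes in the table, Timd4, Cd5l and Marco, summed to 10.5.

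Many C1q UMIs of set 1 lay outside the gate. Of all C1qa UMIs, 28.3% fell in the myeloid class, 25.5% in the hepatoma class and 44.5% in cells of no class, although the myeloid class held 1.16% and the hepatoma class 88.4% of all UMIs of the set. The shares in the myeloid class were 46.1% for C1qb, 45.6% for C1qc, 39.0% for Mrc1 and 28.2% for Vcam1. In the hepatoma class, 62 of 6193 cells held 40.8% of the C1qa UMIs with 0.168% of the class's depth. These 62 cells, chosen for their C1qa, had a median of 2454 UMIs, and Lgmn, a lysosomal protease gene, was at 3528, Vcam1 at 1691 and Mertk at 301 CPM. Their Afp was at 1569 and Alb at 984 CPM, against 5156 and 3658 in the whole hepatoma class and 1140 and 756 in cells of no class. Tyrobp was at 20.3 and Fcer1g at 24.4 CPM in the 62 cells. Requiring a hepatoma gene mean of at least 2 instead of 1 left 1405 hepatoma cells with 13.3 C1qa and 4.21 Vcam1 CPM. At the border of the gate the genes differed. C1qa was at 3357 and Vcam1 at 1080 CPM in the 232 cells just below (0.5 to 1), and at 3205 and 852 in the 193 cells just above (1 to 1.5). Across this border C1qb went from 434 to 650 CPM, C1qc from 783 to 1073 and Mrc1 from 244 to 381.

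The chains of C1q did not keep a fixed ratio across these cells. Among set 1 cells with a C1q mean value of at least 1 and few T cell transcripts, there were 11.2 C1qa UMIs per C1qb UMI (exact interval 10.2 to 12.4, 282 cells) where the mean of Tyrobp and Fcer1g was below 0.5. The ratio was 7.79 (7.10 to 8.57) from 0.5 to 1, 4.99 (4.52 to 5.52) from 1 to 1.5, 3.90 (3.47 to 4.39) from 1.5 to 2, and 2.10 (1.90 to 2.33, 86 cells) at 2 and above. C1qa went from 6677 to 3231 CPM from the lowest to the highest bin and C1qb from 594 to 1536. The C1qa to C1qc ratio went from 6.39 to 1.85. Mrc1 lay between 405 and 543 CPM in the 5 bins.

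Cells chosen without any C1q gene, by a Mertk value of at least 1, gave ratios in the same order, from 12.2 C1qa UMIs per C1qb UMI in the lowest bin to 2.56 (2.22 to 2.96) in the highest. On the deposited scale the C1q-selected cells kept the order in each of the 6 sets. The Mertk-selected cells kept it in 5, and in set 1 the lowest bins were at 1.99 (below 0.5) and 2.00 (0.5 to 1). The mean of C1qa less that of C1qb in the C1q-selected cells was 2.31 to 2.72 below 0.5, 1.82 to 2.09 from 0.5 to 1, 1.41 to 1.62 from 1 to 1.5, 0.76 to 1.23 from 1.5 to 2, and 0.18 to 0.77 at 2 and above, over the 6 sets. In the C1q-selected cells of set 1 the median depth was 1768, 3902, 2501, 4381 and 3517 UMIs in the 5 bins. The 9 mitochondrial genes of the table summed to 5089, 5651, 7074, 5612 and 7247 CPM in these cells. In the Mertk-selected cells of set 1 they summed to 11142, 5362, 7609, 5280 and 7220 CPM, highest in the bin with the highest chain ratio. Sets 2 to 6 had the opposite order of these 2 end bins on the deposited scale. There the mean of these genes in Mertk-selected cells was 1.054 to 1.228 below 0.5 and 1.318 to 1.497 at 2 and above. Set 1 had 1.341 and 1.312. In the C1q-selected cells the mean was 1.013 to 1.082 below 0.5 and 1.256 to 1.386 at 2 and above, over the 6 sets. The part of depth or RNA quality in the chain ratio was not tested.

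**Figure D2:**
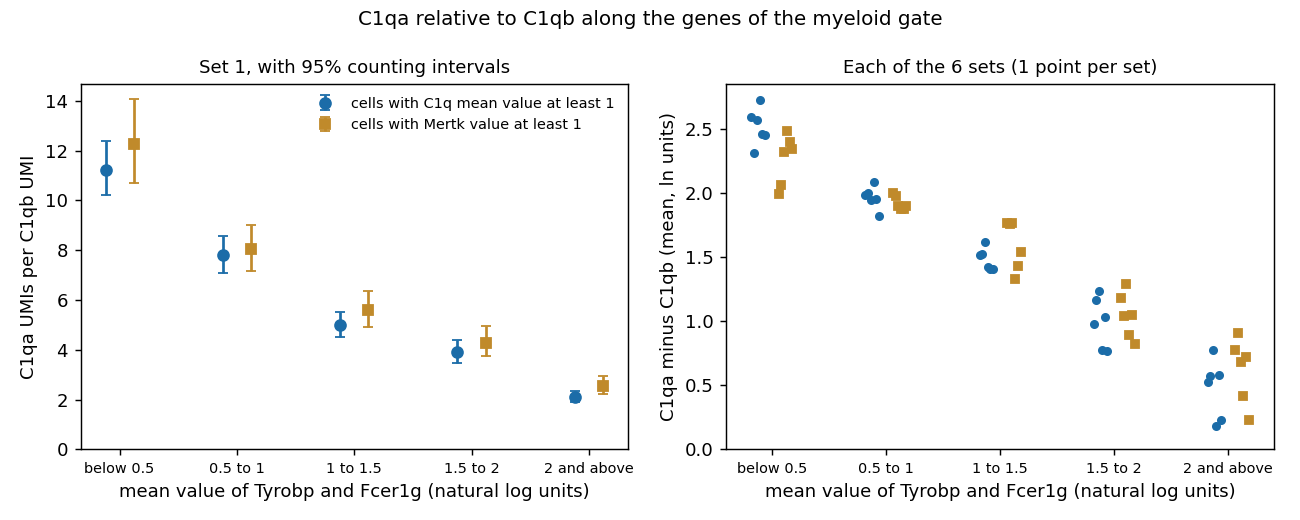
C1qa relative to C1qb in 5 bins of the mean value of Tyrobp and Fcer1g (natural log units), for cells selected on C1q (circles) or on Mertk (squares). Left, UMIs of C1qa per UMI of C1qb in set 1 with 95% exact intervals, going from 11.2 to 2.10 in the C1q-selected cells; right, the difference of mean values with 1 point for each of the 6 sets, lowest in the last bin in every set.

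Across the 6 sets, the mean value of C1qa in myeloid cells was 1.83, 1.40, 2.06, 1.07, 1.53 and 1.21 in sets 1 to 6. C1qb was at 1.27, 0.98, 1.38, 0.81, 1.09 and 0.90, and C1qc at 1.38, 1.06, 1.52, 0.70, 1.11 and 0.92. Sets 1 and 3 were the highest and set 4 the lowest for all 3 chains. Vcam1 was at 0.89, 0.65, 1.09, 0.37, 0.75 and 0.55, again highest in set 3 and lowest in set 4. Mrc1 was at 0.65, 0.47, 0.60, 0.35, 0.42 and 0.40, with set 1 highest. Cd163 stayed between 0.0029 and 0.016, and 0% to 1.44% of myeloid cells had a value of at least 1. Without cells bearing markers of other types, C1qa ranged from 1.30 to 2.35 and Vcam1 from 0.45 to 1.25. Which groups the high and low sets belong to is not recorded.

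In each set C1qa, C1qb, C1qc and Mrc1 were higher in myeloid cells than in the other 3 classes. The least difference for C1qa was 0.64, against hepatoma cells in set 4, where the hepatoma class also had its highest C1qa mean (0.43). Vcam1 was higher in myeloid cells than in fibroblasts in 5 of 6 sets. In set 4 fibroblasts had the higher mean, 0.49 against 0.37. Vcam1 means in fibroblasts were 0.62, 0.43, 0.46, 0.49, 0.25 and 0.13 in sets 1 to 6.

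**Figure D3:**
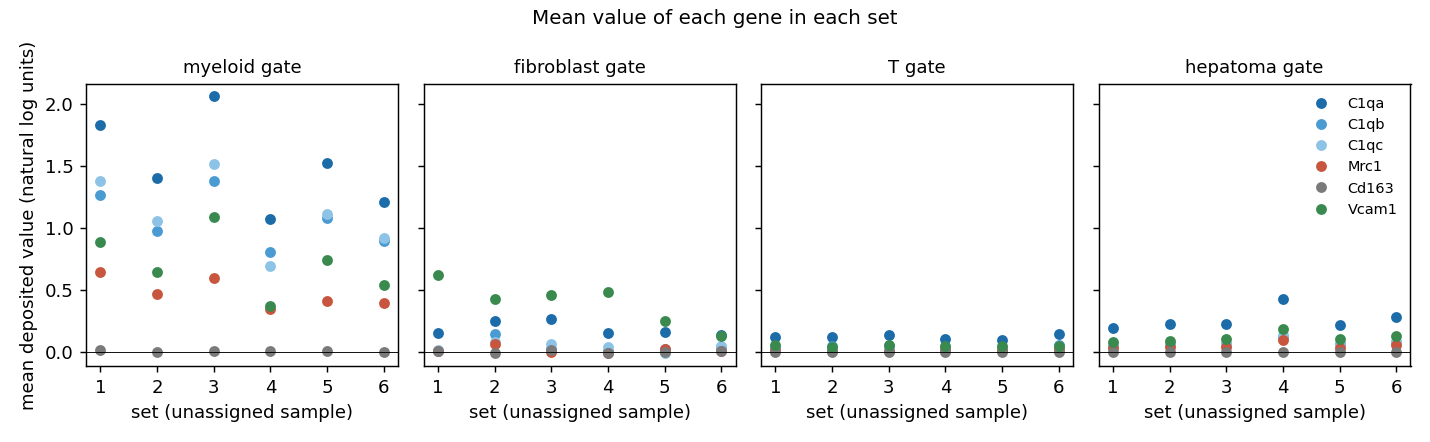
Mean deposited value (natural log units) of each gene in each of the 6 sets, by class. C1qa in myeloid cells runs from 1.07 in set 4 to 2.06 in set 3, and Vcam1 is the gene with the highest fibroblast means in 5 sets, from 0.25 to 0.62.

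Within myeloid cells the levels of the C1q chains varied together. Over cells of a set, Pearson's r between C1qa and C1qc had a median of 0.84 over the 6 sets (range 0.77 to 0.89), C1qb and C1qc 0.79 (0.75 to 0.86), and C1qa and C1qb 0.76 (0.68 to 0.83). Vcam1 followed C1qa with a median r of 0.66 (0.59 to 0.74) and Mrc1 did so with 0.49 (0.42 to 0.55). Mrc1 and Vcam1 were linked by 0.36 (0.31 to 0.42). Correlations of Cd163 with the other 5 genes had medians of -0.0037 to 0.094. These cells share a library and differ in depth, and the gate mixes types with and without C1q. Without cells bearing markers of other types, the C1qa medians were 0.82 with C1qc, 0.63 with Vcam1 and 0.44 with Mrc1.

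In thinned counts, C1qa and C1qc were both detected in 180 of 498 cells, against 95.8 from the product of their shares. C1qa and Vcam1 were both detected in 125 cells against 63.2, and 93.3% of the Vcam1 cells held C1qa. Mrc1 and C1qa met in 79 cells against 45.8. Vcam1 and Ccr2 met in 9 cells against 26.9, whereas Mrc1 and Ccr2 met in 20 cells against 19.5.

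Among all other genes of the table, the 5 most like C1qa by median r were C1qc, C1qb, Vcam1, Lgmn (0.65) and Mertk (0.55), the last a receptor for apoptotic cells. Lgmn was also among the 5 for C1qb (0.54), C1qc (0.60) and Mrc1 (0.45). Ctsb, another lysosomal protease gene, completed the list for C1qb (0.48) and the chemokine gene Ccl8 that for C1qc (0.53). Vcam1 was most like C1qa, C1qc, Mmp13 (0.56), Mertk (0.55) and C1qb. For Mrc1 the list was C1qa, Lgmn, C1qc, C1qb and Selenop (0.42). No gene followed Cd163 above 0.18, the median r of Gas6. The median gene had an r of 0.0044 below to 0.011 above 0 with the 6 genes.

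The 6 genes differed in how their levels stood along Ccr2. Myeloid cells were binned by their Ccr2 value into low (below 0.5), middle (0.5 to 1.5) and high (1.5 and above). This gave 332, 44 and 122 cells in set 1 with median depths of 2026, 5702 and 2919 UMIs. The value is relative to the depth of the cell, so a lone Ccr2 UMI places a shallow cell in the high bin. The middle bin, with 59 Ccr2 UMIs in its 44 cells, therefore held deeper cells and is not a depth-matched step between low and high. Vcam1 went from 1147 CPM (1086 to 1211) in Ccr2-low cells through 559 (475 to 653) to 134 (104 to 171) in Ccr2-high cells. This is 8.55-fold lower (exact interval 6.66 to 11.1), and the thinned share of cells with Vcam1 was 34.3%, 20.5% and 9.02%. C1qa went from 3123 through 2424 to 1495 CPM, 2.09-fold lower (1.93 to 2.27). C1qc went from 1216 through 1058 to 758, 1.61-fold lower (1.43 to 1.80).

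C1qb and Mrc1 had intervals of the ratio that included 1 in the summed UMIs. C1qb was at 768, 736 and 692 CPM, a ratio of high to low of 0.900 (0.792 to 1.02). Mrc1 was at 338, 315 and 308, a ratio of 0.911 (0.749 to 1.10). Cd163 was at 20.1, 0 and 6.20 CPM, from 23, 0 and 3 UMIs, a ratio of 0.308 whose interval also included 1 (0.0593 to 1.02). Without the cell that held 20 of these UMIs its log2 ratio went from -1.55 to 0.98. By the ratio alone C1qa, Cd163 and Vcam1 were more than 2-fold lower in Ccr2-high cells, with the interval below 1 for C1qa and Vcam1, and the other 3 genes were between. Of the 2000 genes 21.2% were more than 2-fold lower and 6.75% higher, and of the 503 genes with at least 50 CPM over both bins 14.1% were lower and 5.96% higher. Vcam1 ranked 63 of 2000 from the lowest, and C1qa 398.

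**Figure D4:**
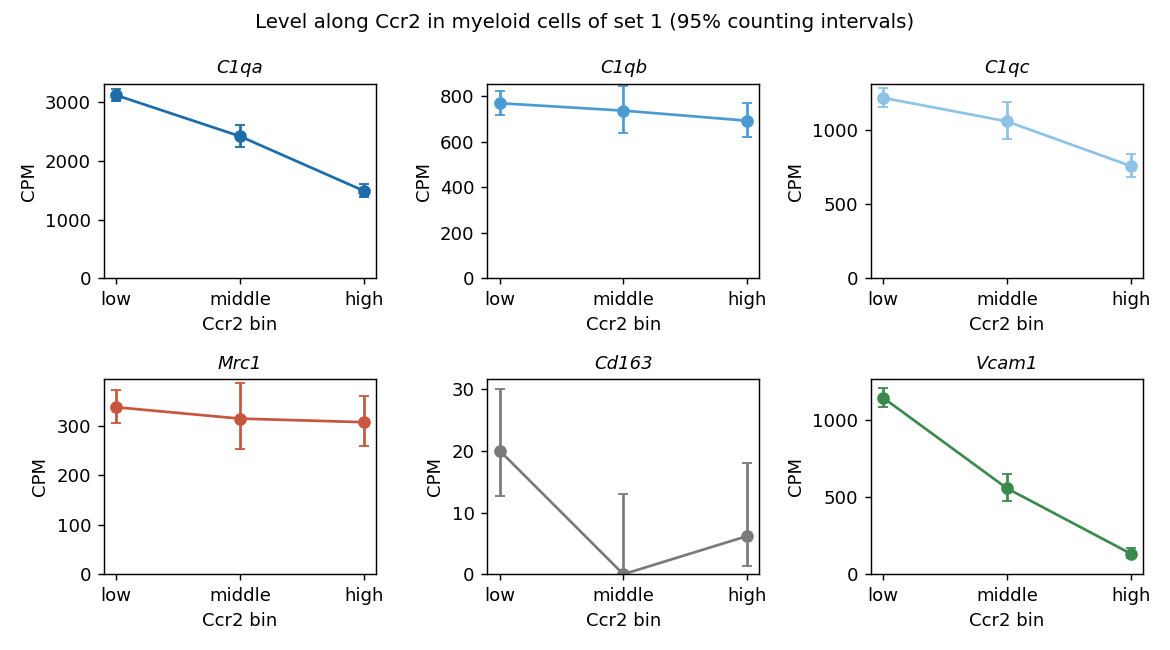
Level of each gene (CPM, axes from 0) in myeloid cells of set 1 with low, middle and high Ccr2, with 95% exact Poisson intervals. Vcam1 goes from 1147 to 134 and C1qa from 3123 to 1495, while C1qb and Mrc1 have overlapping intervals in the 3 bins. The middle bin holds deeper cells, with a median of 5702 UMIs against 2026 in the low and 2919 in the high bin.

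The means of deposited values gave differences between Ccr2-high and Ccr2-low cells for each set. For Vcam1 they were -0.80, -0.85, -0.97, -0.41, -0.66 and -0.59 in sets 1 to 6. For C1qa they were -0.59, -0.86, -1.21, -0.56, -0.88 and -0.70. C1qb (-0.62 to -0.22) and C1qc (-0.99 to -0.38) were also lower in Ccr2-high cells in 6 of 6 sets, C1qb on this scale too, which weights each cell equally. Of the 2000 genes 278 (13.9%) were lower in all 6 sets. Counted from the lowest difference of all genes, Vcam1 ranked 1, 3, 4, 13, 7 and 4 and C1qa ranked 7, 2, 1, 3, 2 and 3. C1qb ranked 41, 15, 9, 21, 11 and 10. By the ratio of summed UMIs in set 1, C1qa ranked 398 of 2000 and C1qb 1013, so the ranks depended on the measure. Mrc1 differed by -0.18 to 0.01 and was lower in 4 of 6 sets. Pearson's r with Ccr2 over cells had medians of -0.26 for Vcam1 (-0.31 to -0.20), -0.22 for C1qa and -0.014 for Mrc1.

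**Figure D5:**
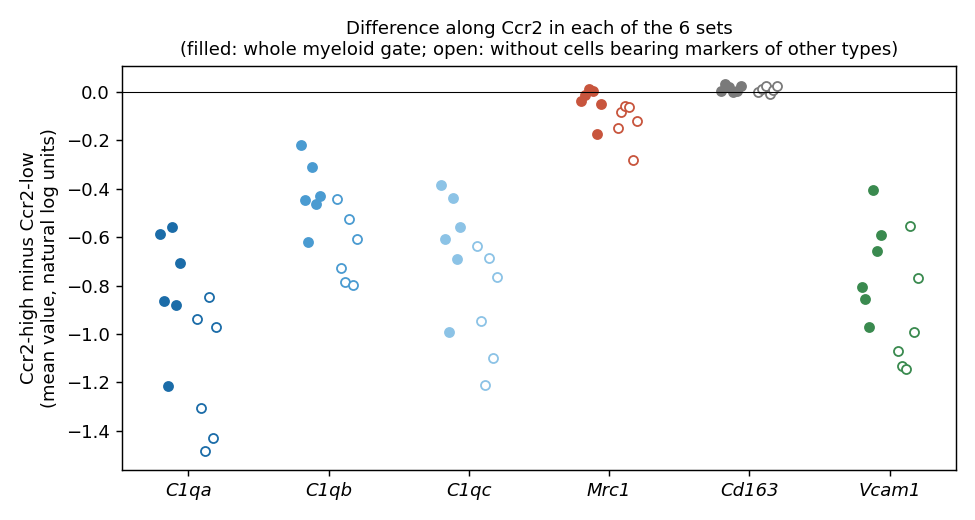
Difference in mean value (natural log units) between Ccr2-high and Ccr2-low myeloid cells, 1 point for each of the 6 sets, for the whole gate (filled) and without cells bearing markers of other types (open). Vcam1 and the C1q chains lie below 0 in every set, and Mrc1 lies between -0.18 and 0.01 in the whole gate.

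Other features moved with the Ccr2 bins. Neutrophil markers summed to 4087 CPM in Ccr2-low and 140 in Ccr2-high cells, 5 of 6 being more than 2-fold lower. Without cells bearing markers of other types the differences were larger: -1.14 to -0.55 for Vcam1, -1.49 to -0.85 for C1qa and -0.28 to -0.06 for Mrc1, each lower in 6 of 6 sets. The gate's own genes were higher in Ccr2-high cells, with a median gate value in set 1 of 2.19 against 1.67. Within gate values of 1 to 2, Vcam1 in Ccr2-high cells was 0.188 of the Ccr2-low level (0.134 to 0.256), and at 2 and above it was 0.0680 (0.0426 to 0.104). C1qa was 0.571 and 0.523 of the Ccr2-low level in these strata, C1qb 0.860 and 0.811, and Mrc1 1.11 and 0.857. C1qa UMIs per C1qb UMI were 4.81 in Ccr2-low and 3.19 in Ccr2-high cells in the lower stratum, and 2.45 and 1.58 in the upper. Endothelial markers were at 9.60 and 8.26 CPM in Ccr2-low and Ccr2-high cells, and the mitochondrial genes at 7561 and 7186.

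The lower Vcam1 with Ccr2 was also present among cells that express C1q. Of the 240 C1q-positive cells of set 1, 44 held a thinned Ccr2 UMI. Vcam1 was detected in 9 of these 44 (20.5%, exact Clopper-Pearson interval 9.80% to 35.3%) and in 118 of the 196 without Ccr2 (60.2%, 53.0% to 67.1%). Mrc1 was detected in 13 of 44 (29.5%, 16.8% to 45.2%) and 68 of 196 (34.7%, 28.0% to 41.8%). In cells with a C1q mean value of at least 1, the Ccr2-high less Ccr2-low difference of Vcam1 was -1.58 to -0.83 over the sets, and that of Mrc1 was -0.16 to 0.28. C1q and Ccr2 were not exclusive: 40 of the 100 cells with a thinned Ccr2 UMI held C1qa, against 47.2 from the product of their shares. C1qb met Ccr2 in 33 cells against 37.3, and C1qc did so in 29 against 40.8.

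Related genes were taken from lists. Of 31 listed complement genes other than the C1q chains, 16 were in the table, and 1 was more than 2-fold higher and 5 lower in Ccr2-high cells (median log2 ratio -0.40, against -0.19 for all 2000 genes). Among the 4 most abundant, the properdin gene Cfp (361 CPM in Ccr2-low and 301 in Ccr2-high cells) and the factor B gene Cfb (246 and 246) lay within 2-fold. Itgax was at 348 and 279, and Itgam, whose product is a chain of complement receptor 3, was at 160 and 308. Of 22 scavenger and endocytic receptor genes 15 were in the table, 3 higher and 3 lower (median 0). Mertk was at 288 and 107 CPM and the haem oxygenase gene Hmox1 at 810 and 411, whereas the scavenger receptor gene Msr1 was at 244 and 295 and the inhibitory Fc receptor gene Fcgr2b at 272 and 467.

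Of 15 listed partners of Vcam1 and other genes of adhesion and recruitment, 6 were in the table, 2 higher and 2 lower (median 0.47). Itga4, a chain of the integrin that binds VCAM-1, was at 111 CPM in Ccr2-low and 194 in Ccr2-high myeloid cells, the opposite order to Vcam1, and at 254 in T cells. The chemokine genes differed among themselves: Ccl8 was at 708 and 53.7 and Ccl12 at 134 and 51.6, while Ccl2, which encodes a ligand of CCR2, was at 408 and 826. Of 8 monocyte markers measured, 4 were higher and none lower. Ccr2 itself was among the 4, which the binning by Ccr2 had fixed in advance. Of all 2000 genes, 6.75% were higher and 21.2% lower. Of 15 macrophage markers 5 were lower and 1 higher, with Mmp12 at 2686 and 667 and Apoe at 1975 and 1476.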

How the data were processed

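Droplet-based 3′ single-cell RNA libraries of mouse tumours were deposited by the authors as a pooled table of natural log values for 2000 genes and 53528 cells. Per the labels' protocols, the platform was the DNBelab C4, reads were aligned with STAR 2.7.2b, cells were chosen with barcodeRanks of DropletUtils and UMIs counted with PISA. The design text names GRCh38 and the submitters' processing notes also list mm10, while the symbols are mouse symbols, so the build behind the table is not known. Promoters and gene positions are RefSeq's for GRCm38.p6 and were not used for any value. The steps from counts to the table are not given in the sources used here.

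All 53528 columns belong to no known sample: nothing maps the 6 sets to the 4 groups (8 entries, with a cDNA and an oligo entry per group), so no group was compared, and each set is described as an unassigned sample. In set 1 each deposited value is the natural log of 1 plus UMIs per 10000 UMIs of the cell. Totals were recovered for 100% of its cells as the whole number (tolerance 1e-06) on which at least 2 values above 0.02 agreed, and 100% of its nonzero values then gave whole UMI counts within 0.01. Totals ran from 1001 to 261833 UMIs, of which the table's genes took 15.0%. Scrublet in scanpy 1.11.5, at an expected 6% of doublets, called 91 cells (0.971%), which were left out of set 1 counts. They remained in values per set.

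Levels are summed UMIs of a gene per 1000000 UMIs of the class (CPM), and a log2 ratio has a pseudocount of 1 CPM. Ratios have exact conditional intervals and shares exact Clopper-Pearson intervals, at 95%. Thinning drew 1000 UMIs per cell without replacement, and no set 1 cell was shallower. Cells were assigned other types inside the gate at a mean marker value of at least 0.5. The count recovery and ratio steps were tested on simulated data. numpy 2.4.6, pandas 2.3.3 and scipy 1.17.1 were used. The genes, lists and comparisons were chosen with earlier results of these data known. Genes named besides the 6 are Ccr2, the genes of the gates, the 5 most correlated genes of each and up to 4 genes per list with the highest myeloid level. Marker genes named for the C1q-positive and C1q-negative cells, and for the 62 hepatoma class cells, were chosen after their values were seen, as were the bins along the gate genes. Alternatives were other gates, thinning, means over cells, other Ccr2 splits, leaving out other cell types, another pseudocount and Spearman's rho.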

Additional observations from a re-analysis of the deposited data

Results flagged for a closer look

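Of 24 series of 6 set means (6 genes in 4 classes), 2 had a set whose gap to the next exceeded Dixon's 95% critical value, where chance gives about 5% of series. C1qb in fibroblasts had a mean value of 0.149 in set 2, from 55 cells, against 0.0439 in the next highest set. C1qc in hepatoma cells had a mean value of 0.143 in set 4 against 0.0840 in the next. The other 5 genes also had their highest hepatoma class means in set 4, at 0.43 for C1qa, 0.13 for C1qb, 0.10 for Mrc1, 0.0056 for Cd163 and 0.19 for Vcam1.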

How the results depend on the processing

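The gradient along Ccr2 is given as the log2 ratio of Ccr2-high to Ccr2-low cells of set 1, which was -1.06 for C1qa, -0.15 for C1qb, -0.68 for C1qc, -0.13 for Mrc1, -1.55 for Cd163 and -3.09 for Vcam1. Over all settings tried, C1qa (-1.34 to -0.64), C1qc (-1.09 to -0.40) and Vcam1 (-4.21 to -2.01) stayed below 0, whereas C1qb, Mrc1 and Cd163 took both signs. Moving the gate to 0.5 (730 cells) gave -0.92 for C1qa, 0.21 for C1qb, -0.40 for C1qc and -2.64 for Vcam1. A gate at 1.5 (305 cells) gave -1.34 for C1qa, -0.91 for C1qc, -0.48 for Mrc1, -5.06 for Cd163 and -4.21 for Vcam1. Keeping only the 134 cells with hepatoma genes below 0.5 gave -1.34 for C1qa, -1.26 for C1qb, -1.09 for C1qc, -0.74 for Mrc1 and -3.49 for Vcam1. Without other cell types C1qa was at -1.24. Thinning gave -0.44 for C1qb, -0.90 for C1qc and -2.52 for Vcam1, and means over cells gave -0.44 for C1qb and -0.89 for C1qc. Cells split at the tertiles of Ccr2, highest against lowest, gave -0.78 for C1qa, -0.51 for C1qc and -2.01 for Vcam1. A thinned Ccr2 UMI present against absent gave -0.64 for C1qa, -0.47 for C1qc, 0.17 for Mrc1 and -2.24 for Vcam1. Both last settings were planned. C1q-positive cells only, chosen after seeing the data, gave -0.84 for C1qa, 0.044 for C1qb and -0.51 for C1qc. Leaving out the cell with most Cd163 UMIs, also chosen afterwards, gave 0.98 for Cd163. The cause of these shifts was not tested.

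The ratios of myeloid cells to other classes kept their direction for all genes but Cd163, which had no UMI in the 134 cells low in hepatoma genes. Its log2 ratios there were -0.17 to T cells, -1.38 to fibroblasts and -0.18 to hepatoma cells, against main values of 3.70, 2.48 and 3.69, and its correlations had no value there. Of 120 alternative correlations, all computed in set 1, 102 stayed within the range of Pearson's r over the 6 sets. Over the 6 sets, Spearman's rho of C1qa and Vcam1 had a median of 0.52 (lowest 0.40) against 0.66 for Pearson's r. For C1qc and Vcam1 the medians were 0.45 and 0.63, and for Mrc1 and Vcam1 0.42 and 0.36. The size of the ratios of myeloid cells to other classes moved more: from 6.36 to 3.70 for C1qa against hepatoma cells after thinning, for example, and from 6.30 to 4.09 for Vcam1. Of the 48 alternative levels in myeloid cells 31 moved beyond their counting interval. Depth limits Cd163, with 26 UMIs in the class, and the fibroblast levels, which rest on 77 cells and 1 or 2 UMIs for C1qb, C1qc, Mrc1 and Cd163. No paired analysis was possible because no cell is tied to a labelled replicate. Differences within each set are given as values.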
